A study of Mus musculus with 12 samples.

Results

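The antimicrobial products of Paneth cells described here were 10 genes, listed with earlier results of these data known. They were *Lyz1*, *Itln1*, *Mmp7*, *Pla2g2a* and the 6 alpha-defensin genes *Defa3*, *Defa5*, *Defa17*, *Defa21*, *Defa22* and *Defa24*. Rows were taken by gene symbol, and 7 of the 10 had a row among the 14244 gene rows of the deposited table. *Defa3*, *Defa17* and *Defa24* had no row under their own symbol and were not analysed here. The table held 3 rows under the symbol *Defa1*, and these could not be assigned to any of those genes. RNA came from gut epithelial cells of 5 WT mice and 7 Chd8L+/- mice, with a library for each mouse. All were 8-week-old C57BL/6 males. The Chd8L+/- mice carried, in every tissue, 1 copy of *Chd8* with a deletion of exons that its large isoform needs, and the WT mice were their littermates, from WT females mated with Chd8L+/- males. The sources used here do not say which gut region each library came from.

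Paneth cells sit at the base of the small intestinal crypts, next to the stem cells. They store antimicrobial proteins in large granules and release them into the crypt lumen, where they act on bacteria. Alpha-defensins are small cationic peptides that damage bacterial membranes, and in mice they are made as inactive precursors that Mmp7, a metalloproteinase of the same granules, cuts into the active form. Lyz1 is the lysozyme of Paneth cells, which cleaves the bacterial cell wall. Itln1 is a lectin that binds microbial sugars. Pla2g2a is a secreted phospholipase that attacks bacterial membrane lipids, and its gene carries a disrupting mutation in C57BL/6 mice.

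The alpha-defensin genes are near-copies of each other, and this decides how finely their values can be read. *Defa21*, *Defa22* and *Defa5* lie on chromosome 8 (GRCm38, the build of mm10), at chr8:21025545-21026516, chr8:21162277-21163249 and chr8:21297439-21298375, all on the plus strand. The coding part of the last exon, which encodes the mature peptide, is shown for these members below, with capitals at the bases that differ from *Defa22* at the same place.

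Defa22: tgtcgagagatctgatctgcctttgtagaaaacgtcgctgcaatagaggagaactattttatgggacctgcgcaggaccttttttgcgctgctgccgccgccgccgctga
Defa21: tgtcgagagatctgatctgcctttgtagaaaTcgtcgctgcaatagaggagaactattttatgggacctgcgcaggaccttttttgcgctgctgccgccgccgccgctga
Defa5: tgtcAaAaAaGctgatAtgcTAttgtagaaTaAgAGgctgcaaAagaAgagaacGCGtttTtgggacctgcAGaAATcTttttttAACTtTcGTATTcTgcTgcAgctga

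These stretches are 110 bases long and lie at chr8:21163046-21163155 in *Defa22*, chr8:21026314-21026423 in *Defa21* and chr8:21298172-21298281 in *Defa5*. *Defa21* differed from *Defa22* at 1 base there and at 2 of the 282 bases of the whole coding sequence. *Defa5* differed from *Defa22* at 36 bases of this exon and at 47 of the 282 coding bases. The nearest relative of *Defa5* was *Defa34*, another alpha-defensin, which differed from it at 4 of 282 coding bases.

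The promoters of *Defa21* and *Defa22* are equally close. The 250 bases before the start of *Defa22* (RefSeq, GRCm38.p6, chr8:21162027-21162276, plus strand) are shown because the same letters, with 0 differences, stand before *Defa21* at chr8:21025295-21025544. Capitals mark matches to CTTTGA, the core letters of a TCF/LEF site, on either strand, and to TATAAA.

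Defa22 promoter: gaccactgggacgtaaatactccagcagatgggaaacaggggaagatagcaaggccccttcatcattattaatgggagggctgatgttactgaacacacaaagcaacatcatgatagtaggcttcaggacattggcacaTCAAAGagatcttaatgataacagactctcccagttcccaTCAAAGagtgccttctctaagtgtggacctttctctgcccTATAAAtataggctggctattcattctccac

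The *Defa22* and *Defa21* windows each held 2 matches to CTTTGA and 1 to TATAAA. Of 32851 promoter windows of 250 bases before a start, searched in the same way, 13.8% held CTTTGA and 12.4% held TATAAA at least once. *Lyz1* and *Itln1* held neither. One of the listed *Mmp7* windows held 1 match to CTTTGA and the other held 2 to TATAAA. No window was listed for *Defa5* or *Pla2g2a*. A match is only a run of letters, and no binding was measured.

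Windows of 75 bases, the length of the reads, were then compared between the transcripts of all genes. *Defa21* shared 56.4% of its windows with *Defa22* and with no other gene, and *Defa22* shared 56.2% with *Defa21*. *Defa5* shared 97.4% of its windows with other alpha-defensin genes, among them *Defa34*, *Defa36* and *Defa37*. *Lyz1* shared 6.22% with its neighbour *Lyz2*, the lysozyme of myeloid cells. *Itln1*, *Mmp7* and *Pla2g2a* shared 0 windows with any gene. A read from a shared window cannot be placed on 1 gene by its letters, and how the authors' counting treated such reads is not given in the sources used here. *Defa31*, another alpha-defensin, shared 100% of its windows and still had normalized counts from 8588 to 64555. They stayed within 8 reads of those of *Defa23*, its near-copy, in every library. Shared reads were thus not all dropped, and the same read may stand in more than 1 row. The values of *Defa21*, *Defa22* and *Defa5* are therefore given as those of their rows, which may hold reads of near-copies.

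**Figure D1:**
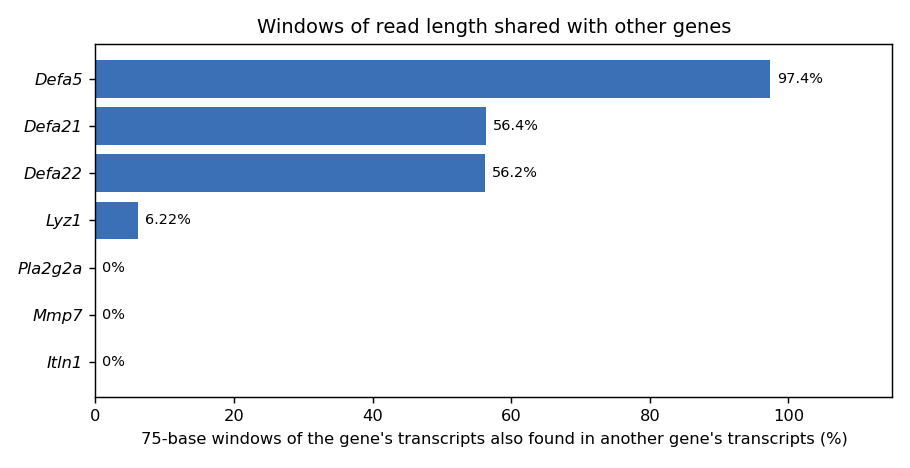
Share of the 75-base windows of each gene's transcripts that also occur in a transcript of another gene (horizontal axis, percent), for the 7 products with a row. *Defa5* stands at 97.4%, *Defa21* and *Defa22* at 56.4% and 56.2%, *Lyz1* at 6.22% and the other 3 at 0.

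The libraries held from 15691662 to 20761315 reads on genes, and all 7 products had reads in all 12 of them. WT replicate 2 stood apart from the other WT libraries over all genes. On the first principal component it lay at 41, where the other WT libraries lay between -67.5 and -26.2 and the Chd8L+/- libraries between 0.26 and 42.7. Counts of calls are therefore also given without it, a choice made after its values were seen. As it lay among the Chd8L+/- libraries on that component, leaving it out favours a difference between genotypes. Calls from that fit are no independent support for such a difference. In it 27.6% of 12807 genes were called, where leaving out any other library called between 0 and 8 genes. Every count from that fit below stands against the 27.6%. The whole-gene count of *Chd8* was between 823 and 1050 in WT and between 1084 and 1483 in Chd8L+/- libraries (log2 fold change 0.44, limma, adjusted p = 0.121). It passed the test without WT replicate 2 (log2 fold change 0.48, limma, adjusted p = 0.00676) and with DESeq2 (adjusted p = 0.00357). It covers exons outside the deletion and does not check the labels, so genotypes are as labelled throughout.

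The genotypes were compared to ask whether the loss of 1 *Chd8L* copy goes with other levels of these products. None of the 7 passed the test (limma on log2 values, Benjamini-Hochberg over 12808 genes, adjusted p of 0.05 or less), where 0.0234% of all genes tested did. None had an unadjusted p of 0.05 or less, against 24.3% of all genes tested, and in none did the genotypes not overlap, against 0.515%. On recovered reads DESeq2 called 0 of the 7, beside 6.29% of all genes tested, and edgeR 0 of the 7, beside 0.039%. The estimate was lower in Chd8L+/- for 3 products (*Itln1*, *Mmp7* and *Pla2g2a*) and higher for 4 (*Lyz1*, *Defa22*, *Defa21* and *Defa5*), and 48.6% of all genes tested had a lower estimate. The median log2 fold change was 0.11 over the products, which is the estimate of *Defa5*, and 0.01 over all genes tested. The 3 alpha-defensin rows rose and fell together (Pearson's r of *Defa22* 0.999 with *Defa21* and 0.918 with *Defa5*). The 7 rows are therefore not 7 separate values in these counts and this median. The animals are the replicates. In RNA from a mixed preparation, fewer Paneth cells and less RNA per Paneth cell cannot be told apart.

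**Figure D2:**
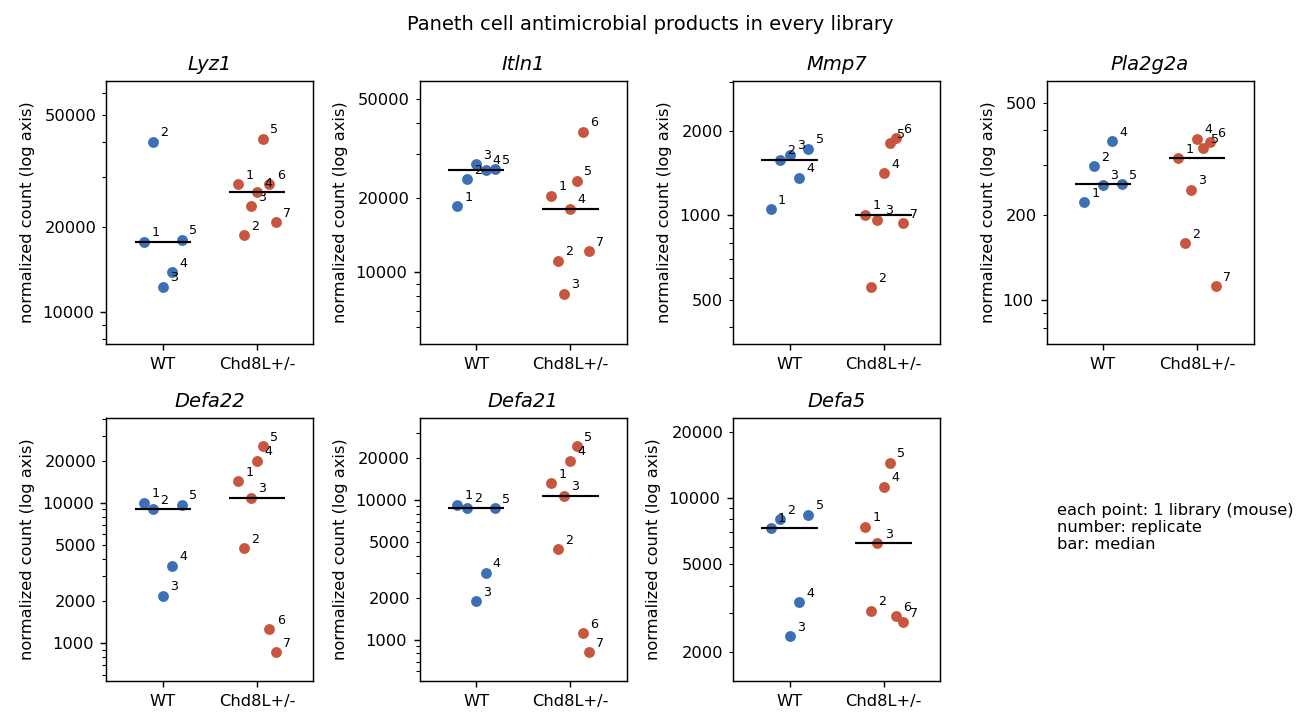
Normalized count (reads divided by the size factor of the library, log axis) of the 7 products in each of 5 WT and 7 Chd8L+/- libraries, with the replicate number beside each point and a bar at the median. The genotypes overlap for every product, and *Defa22* and *Defa21* run from the highest values in Chd8L+/- replicate 5 to the lowest in Chd8L+/- replicate 7.

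*Lyz1* (chr10:117287797-117292868, minus strand) had normalized counts of 17731, 40126, 12289, 13846 and 18037 in WT replicates 1 to 5. In Chd8L+/- libraries they ran from 18682 over a median of 26622 to 41215. WT replicate 2 lay above 6 of the 7 Chd8L+/- libraries, and the other 4 WT libraries lay below all 7 Chd8L+/- libraries. The WT mean was 20406 ± 11298 (SD, n = 5) and the Chd8L+/- mean 26853 ± 7350 (SD, n = 7), with a log2 fold change of 0.49 ± 0.29 (SE, limma, adjusted p = 0.298, 95% interval from -0.12 to 1.11). Without WT replicate 2 the log2 fold change was 0.77 and *Lyz1* passed the test (limma, adjusted p = 0.0212), in the fit that called 27.6% of all genes. That library held the highest WT value of *Lyz1*, so leaving it out raised the estimate. *Lyz1* was the only product called in any of the settings tried.

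The count of *Lyz2* was between 0.0609 and 0.0725 times that of *Lyz1* in every library, a range narrower than that of either gene. Its log2 fold change was 0.49 ± 0.26 (SE, limma, adjusted p = 0.255), and 0.76 without WT replicate 2 (limma, adjusted p = 0.0127). How much of the *Lyz2* row came from reads of shared windows was not tested. Proliferation markers were also highest among WT libraries in replicate 2. They summed to 14522 in WT replicate 2 and to between 3390 and 7633 in the other WT libraries, and their part in the *Lyz1* values was not tested.

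*Itln1* (chr1:171518122-171535294, minus strand) had normalized counts of 18496, 23722, 27309, 25980 and 26059 in WT replicates 1 to 5. In Chd8L+/- libraries they ran from 8206 over a median of 18047 to 36949. Of the Chd8L+/- libraries, 4 lay below every WT library and 1, replicate 6, lay above every WT library. The spread was wider in Chd8L+/-, where the highest value was 4.50 times the lowest, than in WT, where it was 1.48 times, but this difference in spread was not tested. The log2 fold change was -0.53 ± 0.32 (SE, limma, adjusted p = 0.309, 95% interval from -1.22 to 0.15).

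*Mmp7* (chr9:7692090-7699585, plus strand), the protease that activates mouse alpha-defensins, had normalized counts of 1054, 1582, 1647, 1362 and 1729 in WT replicates 1 to 5. The Chd8L+/- libraries ran from 555 over a median of 1004 to 1885. Replicates 1, 2, 3 and 7 lay below every WT library, while replicates 5 and 6 lay above every WT library. The log2 fold change was -0.35 ± 0.27 (SE, limma, adjusted p = 0.417, 95% interval from -0.92 to 0.22).

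*Pla2g2a* (chr4:138831857-138835186, plus strand), annotated as a polymorphic pseudogene, had normalized counts of 222, 298, 256, 366 and 257 in WT replicates 1 to 5. The Chd8L+/- libraries ran from 112 over a median of 318 to 373, with 2 below and 1 above every WT library. The medians and the means lay in opposite order, with a WT mean of 280 ± 55.1 (SD, n = 5) and a Chd8L+/- mean of 274 ± 104 (SD, n = 7). The log2 fold change was -0.13 ± 0.29 (SE, limma, adjusted p = 0.808, 95% interval from -0.74 to 0.48), and its sign turned when Chd8L+/- replicate 7 was left out (0.067).

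The 3 alpha-defensins differed more between mice of 1 genotype than any other product. *Defa22* had normalized counts of 10067, 9005, 2193, 3571 and 9754 in WT replicates 1 to 5. In Chd8L+/- replicates 1 to 7 they were 14343, 4777, 10876, 20089, 25335, 1260 and 864. Replicates 1, 3, 4 and 5 lay above every WT library and replicates 6 and 7 below every WT library, so the highest was 29.3 times the lowest. The log2 fold change of 0.11 ± 0.81 (SE, limma, adjusted p = 0.945) had a 95% interval from -1.63 to 1.86, which spans 0.323-fold to 3.63-fold.

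*Defa21* followed *Defa22* in every library. Its normalized counts were 9224, 8820, 1892, 3024 and 8721 in WT replicates 1 to 5, and 13123, 4457, 10735, 19098, 24177, 1118 and 815 in Chd8L+/- replicates 1 to 7. The ratio of *Defa21* to *Defa22* stayed between 0.847 and 0.987 over the 12 libraries, while each gene varied over 29-fold. The 2 rows may hold the same reads from their shared windows, and the part of such reads in this likeness was not tested. The log2 fold change of *Defa21* was 0.18 ± 0.83 (SE, limma, adjusted p = 0.913, 95% interval from -1.60 to 1.95).

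*Defa5* was low in the same libraries, with a smaller range. It had normalized counts of 7326, 7991, 2363, 3363 and 8376 in WT replicates 1 to 5, and 7413, 3081, 6223, 11249, 14443, 2903 and 2720 in Chd8L+/- replicates 1 to 7. Only replicates 4 and 5 lay above every WT library and none lay below, and the highest of the 12 values was 6.11 times the lowest. Its log2 fold change was 0.11 ± 0.47 (SE, limma, adjusted p = 0.903, 95% interval from -0.89 to 1.11). Leaving out WT replicate 3 turned the sign for *Defa22* (-0.24), *Defa21* (-0.19) and *Defa5* (-0.18), none of them called, and WT replicate 4 or Chd8L+/- replicate 4 or 5 did the same.

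**Figure D3:**
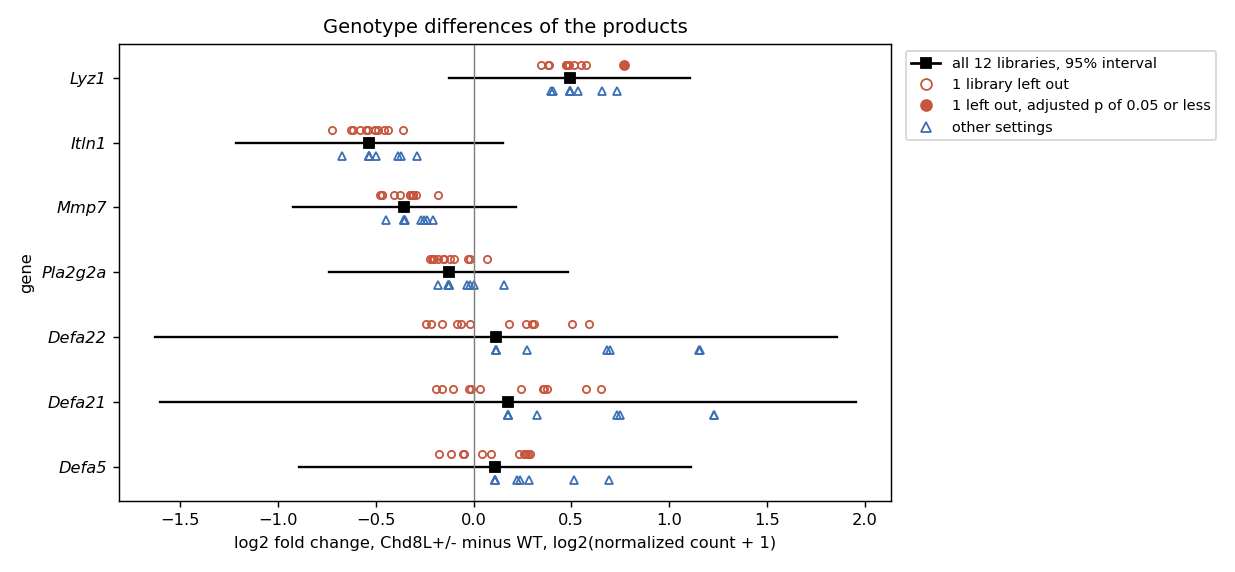
Log2 fold change (Chd8L+/- minus WT, on log2(normalized count + 1), horizontal axis) of each product, with squares and 95% intervals from all 12 libraries, circles with 1 library left out and triangles under other settings. All 7 intervals include 0, those of *Defa22* and *Defa21* are the widest, and the filled circle is *Lyz1* without WT replicate 2, at 0.77.

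The spread between libraries within genotypes set these products apart from each other. The residual SD of log2 values was 1.63 for *Defa22* and 1.66 for *Defa21*, and 98.9% and 99.0% of all genes tested had a smaller one. For *Defa5* it was 0.93, above 93.8% of genes. It lay between 0.51 and 0.59 for *Lyz1*, *Mmp7*, *Pla2g2a* and *Itln1*, above 72.0% to 79.0% of genes, and the median gene had 0.35.

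**Figure D4:**
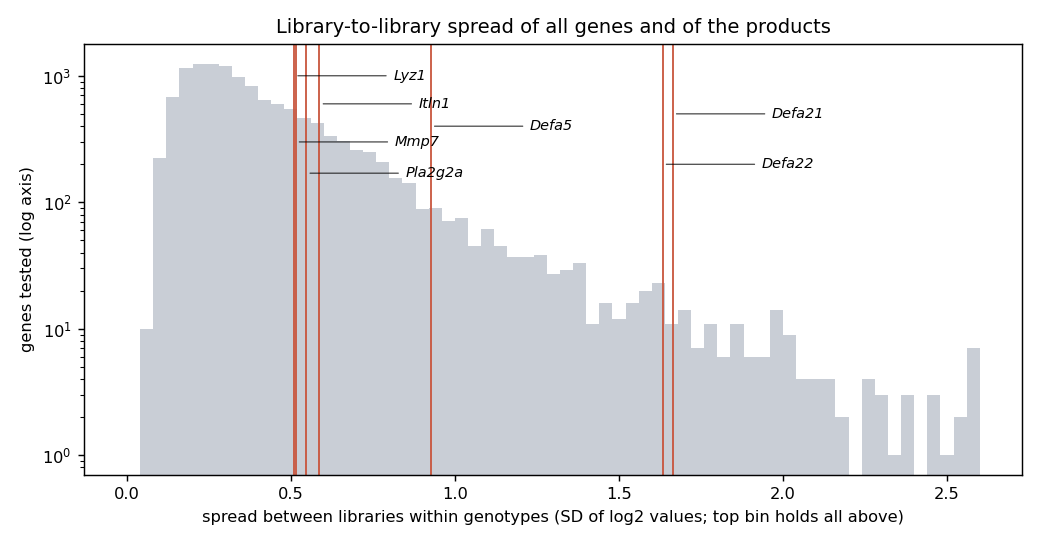
Histogram of the residual SD of log2 values within genotypes (horizontal axis) over the 12808 genes tested (vertical axis, number of genes, log axis), with red lines at the 7 products. *Lyz1*, *Mmp7*, *Pla2g2a* and *Itln1* lie between 0.51 and 0.59, *Defa5* at 0.93 and *Defa22* and *Defa21* at 1.63 and 1.66.

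Per kilobase of merged exons, levels fell into an abundant and a scarce set. In WT the mean normalized count per kilobase was 21309 ± 3067 (SD, n = 5) for *Itln1*, 16511 ± 8917 for *Defa22*, 16157 ± 8945 for *Lyz1*, 15648 ± 7461 for *Defa5* and 15158 ± 8535 for *Defa21*, and neighbours in this order did not differ beyond their spread. *Mmp7* followed at 1381 ± 255 and *Pla2g2a* at 302 ± 59.4, and their WT libraries did not overlap on this scale. In Chd8L+/- libraries *Defa22* was first, at 26439 ± 22549 (SD, n = 7), and *Itln1* was behind the 3 alpha-defensins and *Lyz1*, at 16318 ± 8529, with all 5 abundant genes overlapping. Together the rows of the 7 products took between 0.235% and 0.537% of recovered reads in WT and between 0.179% and 0.734% in Chd8L+/- libraries. Reads of shared windows may be counted in more than 1 row. These shares, and the levels and order of the 3 alpha-defensins, may therefore be too high.

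The products did not share 1 pattern from mouse to mouse. After the mean of each genotype was subtracted, Pearson's r over the 12 libraries was 0.999 between *Defa22* and *Defa21* and 0.918 between *Defa22* and *Defa5*. It was 0.776 between *Itln1* and *Mmp7*, which lie on different chromosomes and share no window. Between *Defa22* and *Itln1* it was -0.103, and between *Defa22* and *Mmp7* 0.083. *Lyz1* stood between these sets, with r of 0.671 with *Defa5* and 0.481 with *Defa22*, and of 0.469 with *Mmp7* and 0.305 with *Itln1*. *Pla2g2a* went with both sets, with r of 0.671 with *Mmp7*, 0.64 with *Itln1* and 0.471 with *Defa22*. These values describe 12 libraries that share depth and preparation, and were not tested.

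Chd8L+/- replicate 6 shows the separation most plainly. It had the highest *Itln1* (36949) and *Mmp7* (1885) of all 12 libraries and the lowest but 1 *Defa22* (1260) and *Defa21* (1118). *Fabp6* and *Slc10a2*, markers of the distal small intestine, are named here after their values were seen. The count of *Fabp6*, the bile acid binding protein of the distal small intestine, in this library was 42.8, where the other libraries had between 2376 and 22957, and *Slc10a2*, the ileal bile acid transporter, was at 8.19, where the others had between 170 and 2464. Chd8L+/- replicate 7, with the lowest *Defa22*, had 4038 for *Fabp6*, within the range of the others. Over all 12 libraries r between *Defa22* and *Fabp6* was 0.462. The part of gut region in the defensin values was not tested.

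Of the other alpha-defensin loci, 23 of the 50 looked for had a row. *Defa2* and *Defa20*, which share all their windows with each other and a pair of near-copies and none with *Defa22*, had r of 0.975 and 0.974 with *Defa22*. Their counts were 42788 and 43316 in Chd8L+/- replicate 5 and 1840 and 1827 in replicate 7. *Defa34* had r of 0.997 with *Defa5*, its near-copy. *Defa23* and *Defa31*, identical over their 282 coding bases, had values within 8 reads of each other in every library and r of 0.869 with *Itln1* but -0.415 with *Defa22*. Rows that share windows thus had like values, but likeness also joined rows that share none, such as *Defa2* with *Defa22* and *Defa23* with *Itln1*. The part of shared reads in these correlations was not tested. *Defa2*, *Defa20* and *Defa34* were chosen for these comparisons after their values were seen.

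*Defa23* had normalized counts of 28392, 38514, 50180, 27752 and 51627 in WT replicates 1 to 5, and ran from 8584 over a median of 21638 to 64548 in Chd8L+/- libraries. It was highest in Chd8L+/- replicate 6, where *Defa22* was low, and lowest in replicate 3, where *Defa22* was above every WT library. The ratio of *Defa22* to *Defa23* accordingly ran from 0.0195 to 1.27, a range of 64.9 times. Within 1 gene cluster, then, some rows were near their highest in the libraries where others were near their lowest.

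**Figure D5:**
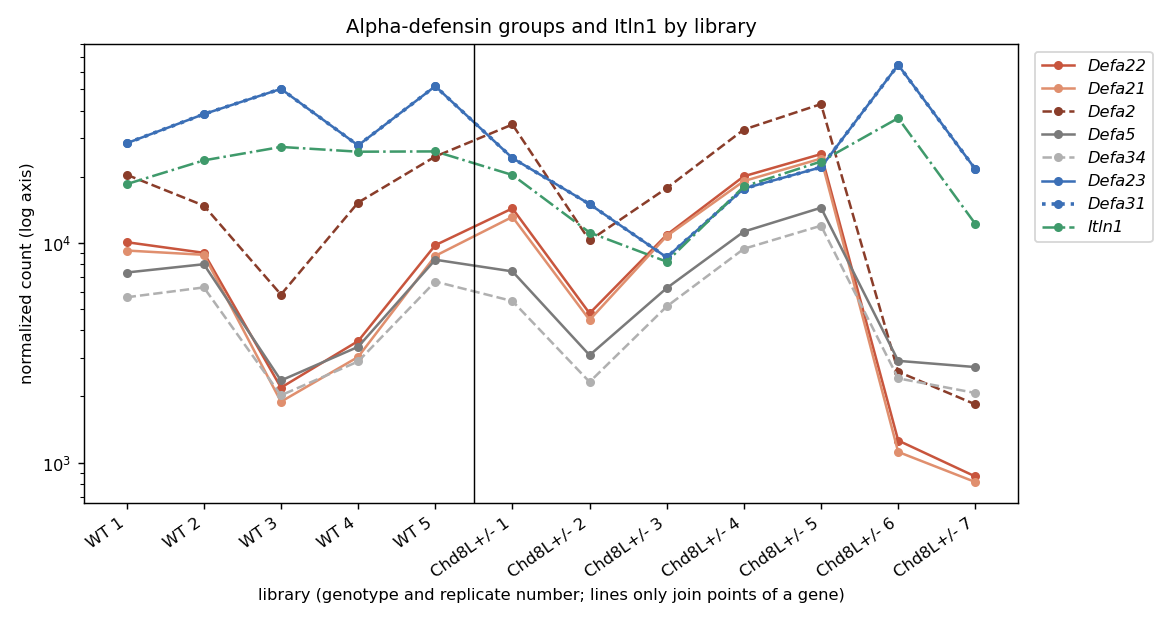
Normalized count (log axis) of alpha-defensin rows and *Itln1* in each library (horizontal axis, genotype and replicate number, lines only join the points of 1 gene). *Defa22*, *Defa21*, *Defa2*, *Defa5* and *Defa34* are low in Chd8L+/- replicates 6 and 7, where *Defa22* is at 1260 and 864, while *Defa23* and *Itln1* are highest in replicate 6, at 64548 and 36949.

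Of the 23 other alpha-defensin rows, 16 had a lower estimate in Chd8L+/- and 7 a higher one, with a median log2 fold change of -0.21 against 0.01 over all genes tested. None passed the test, and 8 had an unadjusted p of 0.05 or less, all lower in Chd8L+/-, beside 24.3% of all genes tested. The smallest p belonged to *Gm15292* (log2 fold change -1.01, limma, adjusted p = 0.122), *Defa26* (-1.05), *Defa28* (-0.94) and *Defa25* (-1.03), with normalized counts of *Gm15292* between 704 and 1314 in WT and between 228 and 1053 in Chd8L+/-. The rows with the highest means, *Defa1*, *Defa31*, *Defa23* and *Defa30*, had log2 fold changes of -0.91, -0.86, -0.86 and -0.76. *Defa1* is here the row that bears this symbol alone. Without WT replicate 2, 6 of the 23 passed the test, no larger a share than the 27.6% of all genes. They were *Defa25*, *Defa26*, *Defa28* and *Gm15292*, lower, and *Gm7849* and *Gm7861*, near-copies of each other, higher. The last pair is named after its values were seen. These loci share reads as the members do.

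The other Paneth cell products looked at included secreted enzymes, pentraxins and protease inhibitors. Of 13 with a row, 12 were tested, 8 had a lower and 4 a higher estimate, and the median log2 fold change was -0.95. None passed the test, and 7 had an unadjusted p of 0.05 or less, all lower, beside 24.3% of all genes tested. *Ang4*, a microbicidal ribonuclease, had normalized counts of 14631, 9378, 37539, 33247 and 35382 in WT replicates 1 to 5, and ran from 2751 over a median of 4613 to 24992 in Chd8L+/- libraries. Its log2 fold change was -1.93 ± 0.54 (SE, limma, adjusted p = 0.121).

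The next smallest p in that list belonged to *Spink4* (-1.25), a protease inhibitor, *Mptx2* (-1.17), a mucosal pentraxin, and *Clps* (-1.77), colipase. *Guca2b*, the hormone uroguanylin, and *Mptx1* were the other rows with high means, with log2 fold changes of -0.73 and -2.40. Without WT replicate 2, 7 of the 12 passed the test, beside 27.6% of all genes. Of these *Lyz2* was higher, and 6 were lower, among them *Ang4* (-2.25), *Spink4* (-1.47), *Mptx2* (-1.17) and *Clps* (-2.10). Some genes of this list are also made by other epithelial cells.

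Factors of Paneth cell fate and niche gave 10 lower and 5 higher estimates of 15 tested, with a median log2 fold change of -0.14, none called and 4 with an unadjusted p no higher than 0.05, near the 24.3% of all genes. The smallest p belonged to *Cd24a* (log2 fold change -1.52, limma, adjusted p = 0.121), a surface marker that other secretory cells also carry. *Sox9*, a transcription factor needed for Paneth cells to form, had a log2 fold change of -0.73 (limma, adjusted p = 0.127), *Kit*, a receptor tyrosine kinase, -0.84, and *Fzd5*, a Wnt receptor, 0.29. Without WT replicate 2 these 4 of 15 passed the test, *Fzd5* higher and the others lower, a share near the 27.6% of all genes. *Ctnnb1* and *Tcf7l2*, which carry the Wnt signal to its targets, were also abundant, with log2 fold changes of -0.18 and -0.30.

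Genes of the secretory pathway and of granule release were balanced, with 12 lower and 8 higher of 20 tested, a median log2 fold change of -0.08, none called and 5 with an unadjusted p no higher than 0.05, near the 24.3% of all genes. *Vamp8*, a membrane fusion protein of granules, had normalized counts between 1765 and 3900 in WT and between 1780 and 2540 in Chd8L+/- libraries (log2 fold change -0.55, limma, adjusted p = 0.125). *Ern1*, a sensor of endoplasmic reticulum stress, had 0.34, *Slc39a7*, a zinc transporter, 0.63, and *Kcnn4*, a potassium channel, 0.77. The chaperone *Hspa5* and *Agr2*, a disulfide isomerase, were abundant, with 0.40 and -0.04. With WT replicate 2 left out, 5 of the 20 passed, 4 lower and 1 higher, a share below the 27.6% of all genes.

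Antimicrobial proteins of other epithelial cells covered a wide range of estimates. Of 21 with a row, 19 were tested, 8 lower and 11 higher, with log2 fold changes from -2.18 to 2.76. None were called, and 9 had an unadjusted p of 0.05 or less, beside 24.3% of all genes tested. *Dmbt1*, a secreted scavenger receptor, ran from 2667 to 43521 in WT and from 17870 to 85525 in Chd8L+/- libraries, with its WT maximum in replicate 2. *Sprr2a1*, *Sprr2a2* and *Sprr2a3*, near-copies of a small proline-rich protein, ran the other way, with *Sprr2a1* between 37621 and 837001 in WT, lowest in replicate 2, and between 50081 and 114511 in Chd8L+/-. Without WT replicate 2, 8 of the 19 passed, 3 lower and 5 higher, beside 27.6% of all genes. Among them were *Dmbt1* (2.89, limma, adjusted p = 0.00273), *Reg3a* (3.08, adjusted p = 0.00292), a lectin, and *Sprr2a3* (-2.94, adjusted p = 0.00255). *Reg3b*, a lectin that kills bacteria, named after its values were seen, had r of 0.731 with *Defa22* and -0.279 with *Itln1* over the 12 libraries.

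Markers of other cells also differed between libraries. Summed tuft cell markers ran from 3269 to 31689 in WT and from 1802 to 13416 in Chd8L+/-, with 11 of 11 tested lower, all 11 at an unadjusted p of 0.05 or less, none called and 10 called as lower without WT replicate 2. Summed proliferation markers ran from 3390 to 14522 and from 8568 to 15284, with 12 of 12 higher, 11 at an unadjusted p of 0.05 or less, none called and 11 called as higher without WT replicate 2. An unadjusted p of 0.05 or less was reached by 24.3% of all genes tested. Enterocyte markers summed to between 408160 and 916775 in WT and between 343229 and 792263 in Chd8L+/- (10 of 11 lower), and goblet markers to between 89463 and 218985 and between 86034 and 164453 (5 of 7 lower). Stem cell markers were higher in 10 of 10, and enteroendocrine markers lower in 6 of 11. When WT replicate 2 was left out, 3 of 11 enterocyte, 1 of 7 goblet and 2 of 11 enteroendocrine markers were called as lower and 4 of 10 stem cell markers as higher, beside 27.6% of all genes.

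Markers of cells from outside the epithelium were at low levels beside those of enterocytes. Summed stromal markers ran from 132 to 616 in WT and from 198 to 2418 in Chd8L+/-, with *Col1a2*, *Col3a1*, *Col6a1*, *Lum* and *Pdgfra* at 0 in at least 1 library. Of the 8 tested, 8 were higher in Chd8L+/- (median log2 fold change 1.90), 5 with an unadjusted p no higher than 0.05, none called and 4 called without WT replicate 2. Over all genes tested, 24.3% reached that unadjusted p and 27.6% were called without WT replicate 2. Myeloid markers ran from 1372 to 3495 and from 1991 to 4169, with 10 of 11 higher and 2 (*Lyz2* and *Itgam*) called without WT replicate 2. *Lyz2*, the highest of them, made up 2606 of the 3495 in WT replicate 2 and 2927 of the 4169 in Chd8L+/- replicate 5. As its count followed that of *Lyz1*, the myeloid sum cannot be read apart from *Lyz1*. Lymphocyte markers ran from 3714 to 7124 and from 2797 to 8398. Of 10 pancreatic acinar markers 1 had a row. Proximal small intestine markers summed to between 60544 and 95024 in WT and between 30327 and 95819 in Chd8L+/-, distal ones to between 11335 and 38432 and between 5127 and 52771, and colon markers to between 6378 and 22224 and between 6809 and 30339. The part of these cells and regions in the values of the products was not tested.

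Outside the alpha-defensins, the genes most like the mean profile of the members over the 12 libraries, after subtracting the mean of each genotype, were *2700081O15Rik* (Pearson's r 0.894), *Elovl5* (0.882), *Csrp1* (0.872), *Pdia5* (0.870) and *Dynll1* (0.869). They are the top of a ranking of all genes tested and are given as a description. For 6 single members, chosen for mention after their values were seen, the closest gene was *Lyz2* for *Lyz1* (0.987), *Esam* for *Itln1* (0.892), *Polr2c* for *Mmp7* (0.932), *B4galnt4* for *Defa22* (0.879) and *Defa21* (0.883), and *Syne4* for *Defa5* (0.928).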

How the data were processed

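Poly(A) RNA of gut epithelial cells, released with hypochlorite, EDTA, DTT and vortexing, was sequenced by the authors as 75-base single-end reads, mapped to mm10 with Tophat2 and taken through DESeq2. The deposited signal is the number of reads on a gene after division by the library size factor. The counter, annotation and use of strand are not given in the sources used here. All 12 columns matched a mouse, and 0 columns belonged to other samples. Dividing each value by what 1 read is worth gave whole reads for 100% of values (tolerance 0.05).

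Genotypes were compared with limma 3.58.1 (R 4.3.3, lmFit, eBayes with trend, two-sided) on log2(value + 1), keeping genes whose mean was 10 or more, without covariates, with Benjamini-Hochberg adjustment over 12808 genes and a threshold of 0.05. The fold changes are on that scale. The step was tested on data simulated with the same dispersion (spread between libraries) for every gene and with no outlying library. That does not show how it performs at the spread of *Defa22*, *Defa21* and *Defa5*. Alternatives were pseudocounts of 0.5 and 5, dropping the filter or asking for 10 in each library, normalization by quantiles, DESeq2 1.42.0 and edgeR 4.0.16 on recovered reads, a block for replicate number or for the letter of the library name, and each library left out. The members and gene lists were chosen with earlier results of these data known. Genes named are all members, *Chd8*, in each Paneth or antimicrobial list at most the 4 with the highest mean and the 4 with the smallest p, and the 5 most like the members; others, where named, were chosen after their values were seen. Positions, exon lengths and coding sequences are from GENCODE M21 (GRCm38), promoters from RefSeq, where 5 of the members had a window. Protein sequences were not used here. Intervals and SDs cover the spread between these mice.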

Additional observations from a re-analysis of the deposited data

Results flagged for a closer look

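*Lyz1* in WT replicate 2 had a normalized count of 40126, where the other WT libraries lay between 12289 and 18037. Its gap to the next library was 0.793 of the whole range of the WT group, above Dixon's 95% critical value for 5 samples. Of 16 groups examined (7 products and *Chd8* in both genotypes) this was the only one marked, where chance marks about 0.8. WT replicate 2 was not outlying in this sense for any other product. The cause was not tested.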

How the results depend on the processing

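The count of products called was 0 in all settings but 1, and it was 1 (*Lyz1*) without WT replicate 2, so that it ran from 0 to 1 with a library left out. The number of products lower in Chd8L+/- was 3, and ran from 2 to 6 with a library left out (6 without WT replicate 3 or 4 or Chd8L+/- replicate 4 or 5, and 5 without Chd8L+/- replicate 1). The median log2 fold change of the products ran from -0.20 to 0.29 with a library left out. The log2 fold change ran from -0.24 to 0.59 for *Defa22*, from -0.19 to 0.65 for *Defa21*, from -0.18 to 0.29 for *Defa5* and from -0.22 to 0.067 for *Pla2g2a*, and it kept its sign for *Lyz1*, *Itln1* and *Mmp7*. Under the 9 other settings 61 of 63 values kept their sign, but sizes moved: *Defa22* was 1.15 with the replicate block (limma, adjusted p = 0.266) and 1.16 with the letter block, *Defa21* 1.23 with either, and *Defa5* 0.51 and 0.69. Chd8L+/- replicates 6 and 7 had no WT library of their number, and replicate 7 was alone with its letter. The replicate block therefore took both out of the genotype estimate, and the letter block took out replicate 7. *Defa22* was lowest in these libraries, at 1260 and 864. With edgeR and DESeq2, *Defa22* was 0.70 and 0.68 and *Defa21* 0.75 and 0.73. *Pla2g2a* turned to 0.00095 with the replicate block and to 0.16 with the letter of the library name as a block, not called in either. Both blocks took out Chd8L+/- replicate 7, which had the lowest *Pla2g2a* (112), and leaving it out alone gave 0.067. What else moved the *Pla2g2a* estimate was not tested. The replicate numbers do not pair the mice: deviations of same-numbered libraries correlated between -0.344 and 0.189, and 1 of 5 WT libraries correlated best with its own number. With the replicate block 0 products were called, as were 0 of all genes tested. The near-copies *Defa22* and *Defa21* had an unadjusted p of 0.05 or less (limma) under it. The share of all genes with such a p was not counted for this block, so the 2 rows cannot be set against it. The median log2 fold change of the products was 0.51 with the replicate block, against 0.66 with the letter block. Over all genes the test called 3 genes, against 5 with edgeR, 805 with DESeq2, 0 with the replicate block, 451 with the letter block, 3534 without WT replicate 2 and between 0 and 8 with another library left out. Calls in the gene lists other than the products are from limma only and were not counted with DESeq2, which called more genes. With 5 and 7 mice and the spread of *Defa22* and *Defa21*, the interval of *Defa22* still includes values from 0.323-fold to 3.63-fold.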
